A study of Mus musculus with 6 samples.

Results

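4921539H07Rik, 6330420H09Rik, Rtl3 and Umodl1 were examined in RNA-seq of the whole right hippocampus of mice with bilateral carotid artery stenosis (BCAS) or sham surgery. They are 4 of the 18617 genes tested, out of 54752 genes in the count tables. They were chosen from the measured values, by a level condition and an overlap condition. The level condition was an average of 1 CPM or more. CPM here are counts scaled to 1000000 per library, after each library total was multiplied by its TMM factor. The overlap condition was a lower level in every BCAS mouse than in every sham mouse. Of the 5 genes with the largest falls in log2 fold change where both conditions were met, these are 4. Of the genes tested, 4040 met the level and overlap conditions. Every value of the BCAS and sham comparison for these 4 genes is therefore a description of how they were selected and carries no test.

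All animals were male wild-type mice, labelled as C57BL/6 and as 14 weeks old. The paper names the strain as C57BL/6 J. RNA was taken 3 weeks after surgery. In the BCAS group (n = 3), microcoils were placed around both common carotid arteries, with the narrower coil on the right, which lowers blood flow to the brain on both sides. The sham group (n = 3) had the same operation without coils. Each library came from 1 mouse, and the comparison asks how the hippocampal transcriptome differed after chronic hypoperfusion.

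4921539H07Rik and 6330420H09Rik are annotated as long intergenic noncoding RNAs (lincRNAs), transcripts that lie between protein coding genes and are not known to encode a protein, and neither has a role stated here. Rtl3 (retrotransposon Gag like 3) belongs to a family of mammalian genes that descend from the gag gene of LTR retrotransposons, the part that in the mobile element builds the capsid, and several members of this family lie on the X chromosome. Umodl1 (uromodulin like 1, also called olfactorin) encodes a protein of the secretory pathway with a zona pellucida (ZP) domain, a module through which extracellular proteins assemble into filaments and matrices, as in uromodulin and the egg coat proteins. In the hippocampus, RNA from pyramidal cells of CA1 to CA3, granule cells of the dentate gyrus, interneurons, glia and vessels is mixed in 1 extract. In such bulk samples fewer cells of a type and less RNA per cell cannot be told apart.

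The first bases of the lincRNAs are shown because these genes had the largest differences and are known mainly through their annotated transcripts. The sequences below are GENCODE M21 transcripts, read 5′ to 3′, 200 bases each. In 4921539H07Rik-201, capitals mark the start of its exon 2, and in 6330420H09Rik-201 capitals mark the bases that also lie in the RefSeq promoter window given further on.
4921539H07Rik-201: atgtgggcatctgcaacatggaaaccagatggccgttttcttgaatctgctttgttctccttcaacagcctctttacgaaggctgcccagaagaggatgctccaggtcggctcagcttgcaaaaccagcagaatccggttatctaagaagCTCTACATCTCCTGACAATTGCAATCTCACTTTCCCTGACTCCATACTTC
6330420H09Rik-201: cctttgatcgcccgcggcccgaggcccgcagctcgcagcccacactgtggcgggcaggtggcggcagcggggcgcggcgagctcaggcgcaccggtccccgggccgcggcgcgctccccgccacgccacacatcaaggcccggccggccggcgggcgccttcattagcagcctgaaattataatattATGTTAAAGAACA
The 5′ end of 6330420H09Rik-201 had a GC content of 70% and that of 4921539H07Rik-201 had 48%. The longest open reading frame, counted from an ATG on the sense strand, was 106 codons in 4921539H07Rik-201 (2985 bases) and 66 codons in 6330420H09Rik-201 (1316 bases). By the same count it was 553 codons in Rtl3-201 (2948 bases) and 1348 codons in Umodl1-203 (5086 bases).

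A promoter window, from 250 bases before to 50 bases after the RefSeq start, was matched for 3 of the 4 genes (RefSeq, build GRCm38.p6), and there was no entry for 4921539H07Rik. The windows are shown because these genes were selected together, and were searched on both strands for short motifs. Capitals mark an E-box, CANNTG. The windows of Rtl3 and Umodl1 are cut before the first annotated transcribed base.
6330420H09Rik, chr7:135853869-135854168, plus strand: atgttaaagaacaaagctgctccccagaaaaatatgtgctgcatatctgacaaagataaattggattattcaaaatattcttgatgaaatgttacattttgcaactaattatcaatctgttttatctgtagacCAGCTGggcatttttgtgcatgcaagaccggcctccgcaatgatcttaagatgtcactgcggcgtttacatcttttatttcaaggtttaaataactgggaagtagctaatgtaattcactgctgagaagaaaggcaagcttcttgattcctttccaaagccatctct
Rtl3, chrX:106840645-106840789, minus strand: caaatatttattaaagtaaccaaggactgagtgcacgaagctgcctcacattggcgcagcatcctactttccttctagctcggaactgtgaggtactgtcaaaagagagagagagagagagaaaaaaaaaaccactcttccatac
Umodl1, chr17:30954433-30954639, plus strand: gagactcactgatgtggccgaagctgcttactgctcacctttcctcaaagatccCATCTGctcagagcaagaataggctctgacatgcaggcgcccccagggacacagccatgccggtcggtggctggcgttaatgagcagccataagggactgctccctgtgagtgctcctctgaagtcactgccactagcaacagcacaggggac
The E-box occurred once in the windows of 6330420H09Rik and Umodl1 and was not found in that of Rtl3, and it is present in 72.3% of 32841 RefSeq promoter windows. CCAAT was found in the windows of 6330420H09Rik and Rtl3, and in 37.4% of all windows. No match was found in the 3 windows for TATAAA (13.6% of all windows), TGACGTCA (1.79%), TGACG (20.8%, and contained in TGACGTCA), TGANTCA (7.81%) or GGGCGG (35.7%). None of the motifs searched was thus found in all 3 windows, and other motifs were not examined. The GC content over the full 300 bases was 36.7% for 6330420H09Rik, 47% for Rtl3 and 57.7% for Umodl1, with a median of 52.7% over all windows. The RefSeq start of 6330420H09Rik lies inside the first GENCODE exon, so the whole window is transcribed sequence in the annotation that was used for counting, and none of it lies upstream of the GENCODE start.

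4921539H07Rik (ENSMUSG00000104586.1) had the largest difference. It spans chr3:58117053-58167616 on the plus strand (mm10), and 8.55% of its 50564 bases are exonic, in 3 merged exons. The counts were 229, 139 and 152 in sham mice 1, 2 and 3, and 19, 8 and 3 in BCAS mice 1, 2 and 3. Every BCAS library was below every sham library, and the lowest sham level was 7.12 times the highest BCAS level. The mean was 5.11 ± 1.43 CPM in sham mice and 0.315 ± 0.248 CPM in BCAS mice (SD, n = 3 each). This is a log2 fold change of -3.99 (SE 0.48) and a mean level 16.2 times lower. BCAS mouse 3 was at the limit of 3 counts below which a level was not read, and the 95% Poisson interval of its count was 0.619 to 8.77, which covers counting error only. The sham level was also spread, with mouse 1 at 132% of the sham mean and mouse 2 at 81.3%.

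6330420H09Rik (ENSMUSG00000109898.1) spans chr7:135853682-135855710 on the plus strand, with 2 exons that take up 64.9% of its 2029 bases. It had 148, 108 and 162 counts after sham surgery and 26, 7 and 0 after BCAS. A count of 0 in BCAS mouse 3 allows a level of up to 0.0961 CPM by the limit of 3 counts, and the upper bound of its 95% Poisson interval was 3.69 counts, so its RNA was not detectable at this depth. The means were 4.11 ± 0.778 CPM in sham mice and 0.344 ± 0.411 CPM in BCAS mice (SD, n = 3 each), and the log2 fold change was -3.55 (SE 0.72). This gene varied most among the BCAS mice, with a coefficient of variation of 120% against 19% among the sham mice. The size of its difference depended on BCAS mouse 1, which had the highest count of its group. Without that library the log2 fold change was -5.12, and without BCAS mouse 3 it was -2.98.

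Rtl3 (ENSMUSG00000047686.9) lies on the minus strand of the X chromosome at chrX:106837082-106840644, and 82.7% of its 3563 bases are exonic, in 2 exons. The counts were 91, 117 and 96 after sham surgery and 11, 30 and 20 after BCAS. In contrast to the other 3 genes, its lowest BCAS library was that of mouse 1. BCAS mouse 2 was the highest. The mean level was 2.99 ± 0.442 CPM in sham mice and 0.658 ± 0.328 CPM in BCAS mice (SD, n = 3 each), and the log2 fold change was -2.19 (SE 0.37). The lowest sham level was 2.7 times the highest BCAS level, the narrowest gap of the 4 genes.

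Umodl1 (ENSMUSG00000054134.13) spans chr17:30954679-31010708 on the plus strand, and its 22 merged exons cover 9% of 56030 bases. It had 87, 66 and 66 counts after sham surgery and 19, 18 and 8 after BCAS. BCAS mice 1 and 2 were alike at 27.1% and 27.7% of the sham mean, and BCAS mouse 3 was lower at 11.9%. The means were 2.15 ± 0.357 CPM and 0.479 ± 0.193 CPM (SD, n = 3 each), and the log2 fold change was -2.16 (SE 0.37). The differences of Rtl3 and Umodl1 are nearer to each other than either standard error, so their order is not separated by these data.

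**Figure D1:**
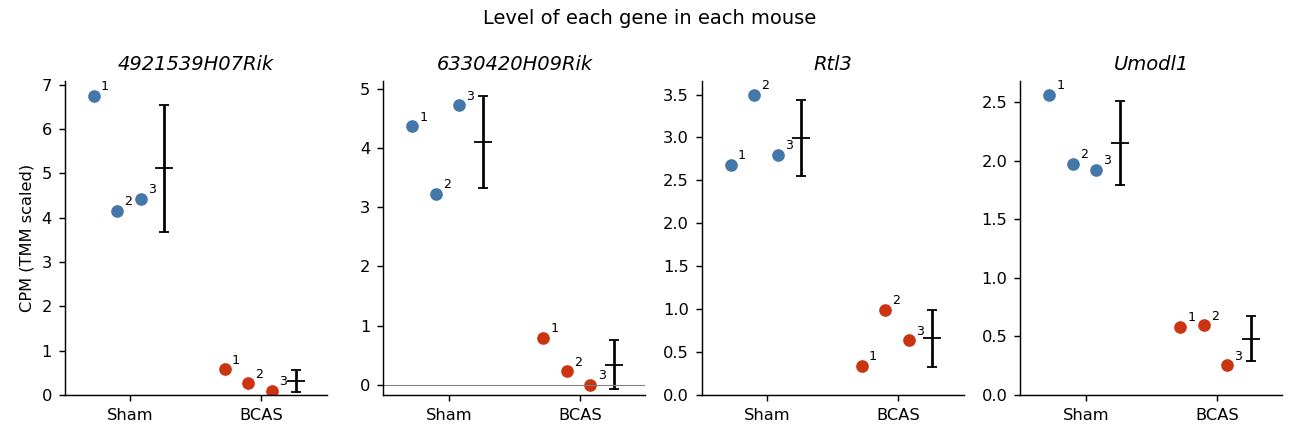
Level of each gene in CPM (TMM scaled, a separate linear axis for each gene) in the 3 sham mice (blue) and the 3 BCAS mice (red), numbered by replicate; black lines give the mean ± SD. In each of the 4 panels the BCAS mice lie below all sham mice, and for 6330420H09Rik BCAS mouse 3 is at 0.

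The 4 genes shared a low level and a larger relative spread in the BCAS group. Per kilobase of exon, the sham level was 3.12 CPM per kb for 6330420H09Rik, 1.18 for 4921539H07Rik, 1.01 for Rtl3 and 0.427 for Umodl1. In the sham mice these levels were between percentiles 16.9 and 47.7 of the tested genes, and in the BCAS mice between percentiles 0.8 and 8. The low BCAS percentiles follow from the choice of genes with large falls, and a gene could enter the tested set on its sham counts alone. The coefficient of variation lay at 14.8% to 27.9% for the sham group and at 40.3% to 120% for the BCAS group. This was not particular to the 4 genes. Spink8, the next largest fall, had 16.1 ± 0.998 CPM in sham and 3.62 ± 1.96 CPM in BCAS mice (SD), and Epyc 2.695 ± 0.322 and 0.609 ± 0.378 CPM. Rasd1, another large fall, went the other way, at 34.97 ± 3.245 and 9.102 ± 0.45 CPM. The share over all tested genes was not examined. No BCAS library had more than 30 counts for any of the 4 genes. Counting error at this depth is wide, with a 95% Poisson interval of 3.45 to 15.8 for a count of 8. The Poisson intervals given here treat each count as independent. Mates of a read pair were counted separately, so these intervals can be too narrow. BCAS mouse 3 was the lowest library for 4921539H07Rik, 6330420H09Rik and Umodl1. That order was common, since BCAS mouse 3 was the lowest library in 72.6% of the 4233 genes with all BCAS mice below all sham mice, BCAS mouse 1 in 15.7% and BCAS mouse 2 in 11.7%.

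Non-overlap between the groups is what the rule required of the 4 genes, and it was frequent, with 22.7% of all tested genes having every BCAS mouse below every sham mouse. A lower level at an adjusted p under 0.05 in edgeR's quasi-likelihood test was found for 13.2% of the tested genes and a higher level for 18%. Of all genes called, 42.3% were lower, and 31.7% when library totals replaced TMM factors. A log2 fold change under -1 together with that adjusted p was rarer, at 0.999% of the tested genes. The median log2 fold change over all tested genes was 0.018, and 21 genes were below -2.

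**Figure D2:**
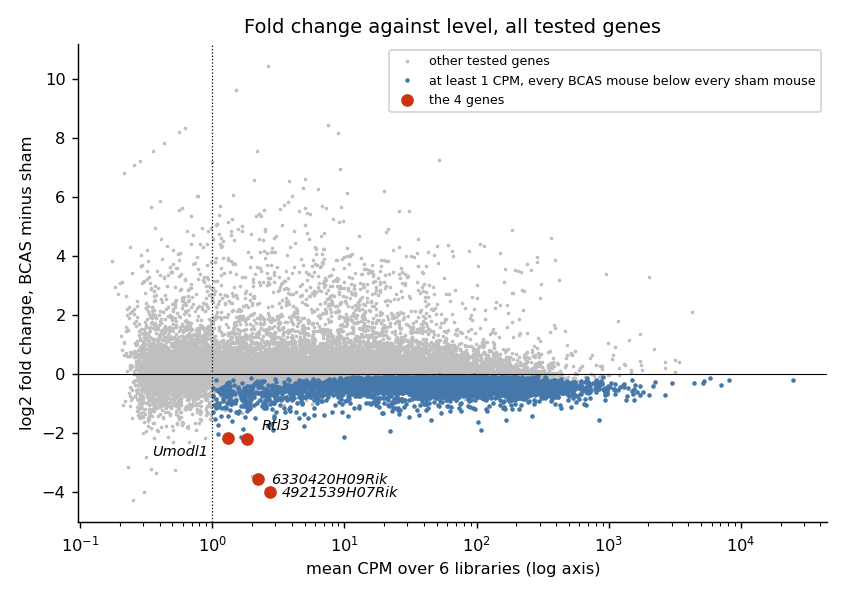
Log2 fold change (BCAS minus sham) against the mean CPM over 6 libraries on a log axis, for all 18617 tested genes; blue points have at least 1 CPM and every BCAS mouse below every sham mouse, red points are the 4 genes, and the dotted line is 1 CPM. The 4 genes lie at the lower left edge, with means of 1.32 to 2.71 CPM, and the lower lincRNA pair is set apart from the other blue points.

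The edges of the rule were close to Umodl1. The gene that completed the 5 largest falls was Spink8, a serine protease inhibitor used as a marker of CA1 pyramidal cells, with a log2 fold change of -2.15. It had 563, 500 and 575 counts after sham surgery and 191, 81 and 72 after BCAS, and a mean of 9.86 CPM, higher than any of the 4 genes. Epyc, which encodes a small proteoglycan of the extracellular matrix, was next at -2.13 with a mean of 1.65 CPM. Larger falls than that of Umodl1 were seen in 12 genes that missed the rule. Among these, Avpr1b, a vasopressin receptor, had -4.28 at a mean of 0.251 CPM, Tex13c2 had -4.01 at 0.302 CPM, Klk10, of the kallikrein family, had -3.35 at 0.376 CPM, and Tmprss6, a membrane protease, had -3.26 at 0.52 CPM. Gh, which encodes growth hormone, had a mean of 1.99 CPM and -3.45, but its groups overlapped, and 349 of its counts came from sham mouse 1. Gm36447, named after its values were seen as the gene nearest below the level limit, had a mean of 0.877 CPM and -2.17. The level limit and the overlap condition thus decided which genes were listed, and the 4 genes are the largest falls only where both are met.

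By annotation, 4921539H07Rik and 6330420H09Rik belong to a class that was mostly not called. Of 735 lincRNAs tested, 5.03% were lower and 6.12% were higher at an adjusted p under 0.05 by edgeR, beside 13.2% and 18% over all tested genes, and their median log2 fold change was -0.04. LincRNAs were also measured at lower levels, with a median of 0.879 CPM against 15.9 CPM over all tested genes. The 4 lincRNAs 4921539H07Rik, 6330420H09Rik, Gm35037 and Gm36447 were below -2. On the X chromosome, where Rtl3 lies, 20.5% of 630 tested genes were lower and 13.3% higher, at a median of 16.2 CPM, and 3 genes, Rtl3, Tex13c2 and Fgf16, were below -2.

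Genes that overlap the 4 loci had few or no reads. 4921539H07Rik is overlapped by the lincRNA 1700007F19Rik (chr3:58141707-58163807), on the opposite strand. Their exons share 214 bases, 4.95% of the exonic length of 4921539H07Rik. 1700007F19Rik had 2, 2 and 0 counts after sham surgery and 0, 3 and 0 after BCAS. Strand was not used in counting, and a read in the shared exon bases would have counted for neither gene. At the 5′ end of 6330420H09Rik, Gm45241 (chr7:135850708-135854448) runs on the opposite strand and overlaps its span by 767 bases, with no shared exon base. It had 1, 0 and 12 counts after sham surgery and 6, 0 and 0 after BCAS, so neither group was clear of the other. The microRNA gene Gm24026 (chr17:30967197-30967294) lies in an intron of Umodl1 on the same strand and had 0 counts in all 6 libraries. Rtl3 was overlapped by no annotated gene.

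Next, genes within 250 kb were examined, since these are chosen by position and not by their values. Of 47 such genes, 28 had any count and 13 could be tested. None of the 13 was lower and 5 were higher in BCAS mice (edgeR quasi-likelihood, adjusted p under 0.05), beside 13.2% lower and 18% higher over all tested genes. At an unadjusted p under 0.05 the count of lower neighbours by edgeR was also 0, and DESeq2 and limma-voom called 0 at an adjusted p under 0.05. Around 4921539H07Rik only Tsc22d2, 247099 bases downstream, could be tested, at a log2 fold change of -0.13 (SE 0.09, edgeR adjusted p = 0.308). It had 1776, 1792 and 1776 counts after sham surgery and 1374, 1484 and 1641 after BCAS, and the groups overlapped after scaling.

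Upstream of 6330420H09Rik, the proliferation marker Mki67, which is the nearest tested gene at 137321 bases, was higher. It had 89, 113 and 69 counts after sham surgery and 241, 133 and 437 after BCAS, a log2 fold change of 1.69 (SE 0.40, edgeR adjusted p = 0.0122). Mki67 lost this call without sham mouse 1 (adjusted p = 0.0548) and without sham mouse 3 (adjusted p = 0.0585). 5830432E09Rik, which is antisense to Ptpre, had 3, 1 and 3 counts after sham surgery and 23, 25 and 51 after BCAS (edgeR adjusted p = 0.00165). Ptpre, a receptor tyrosine phosphatase gene, was at -0.11 (adjusted p = 0.251). Because strand was not used, reads of 5830432E09Rik and of Ptpre cannot be told apart where they overlap.

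Beside Rtl3, the nearest tested genes were Lpar4, a lysophosphatidic acid receptor, 79981 bases upstream, and Gm5127, 126525 bases downstream. Lpar4 was at 0.40 (edgeR adjusted p = 0.103) and Gm5127 at 0.61 (edgeR adjusted p = 0.372), and neither was called. Cysltr1, a receptor for cysteinyl leukotrienes, was higher, with 40, 21 and 51 counts after sham surgery and 95, 90 and 178 after BCAS, a log2 fold change of 1.81 (SE 0.39, edgeR adjusted p = 0.00822). P2ry10, a receptor gene of immune cells, had 2, 6 and 0 counts after sham surgery and 14, 16 and 13 after BCAS (edgeR adjusted p = 0.0365). Its call was lost when any library except sham mouse 2 was left out, with adjusted p from 0.0646 to 0.114.

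Umodl1 lies between Glp1r, the receptor of glucagon-like peptide 1, 18169 bases upstream, and Abcg1, a cholesterol exporter, 46990 bases downstream. Glp1r was at -0.31 (SE 0.76, edgeR adjusted p = 0.789), on 2 to 17 counts per library. Abcg1 was higher, with 2054, 1767 and 1740 counts after sham surgery and 2279, 2611 and 2857 after BCAS, a log2 fold change of 0.60 (SE 0.11, edgeR adjusted p = 0.00474). Neither gene beside Umodl1 was called lower.

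**Figure D3:**
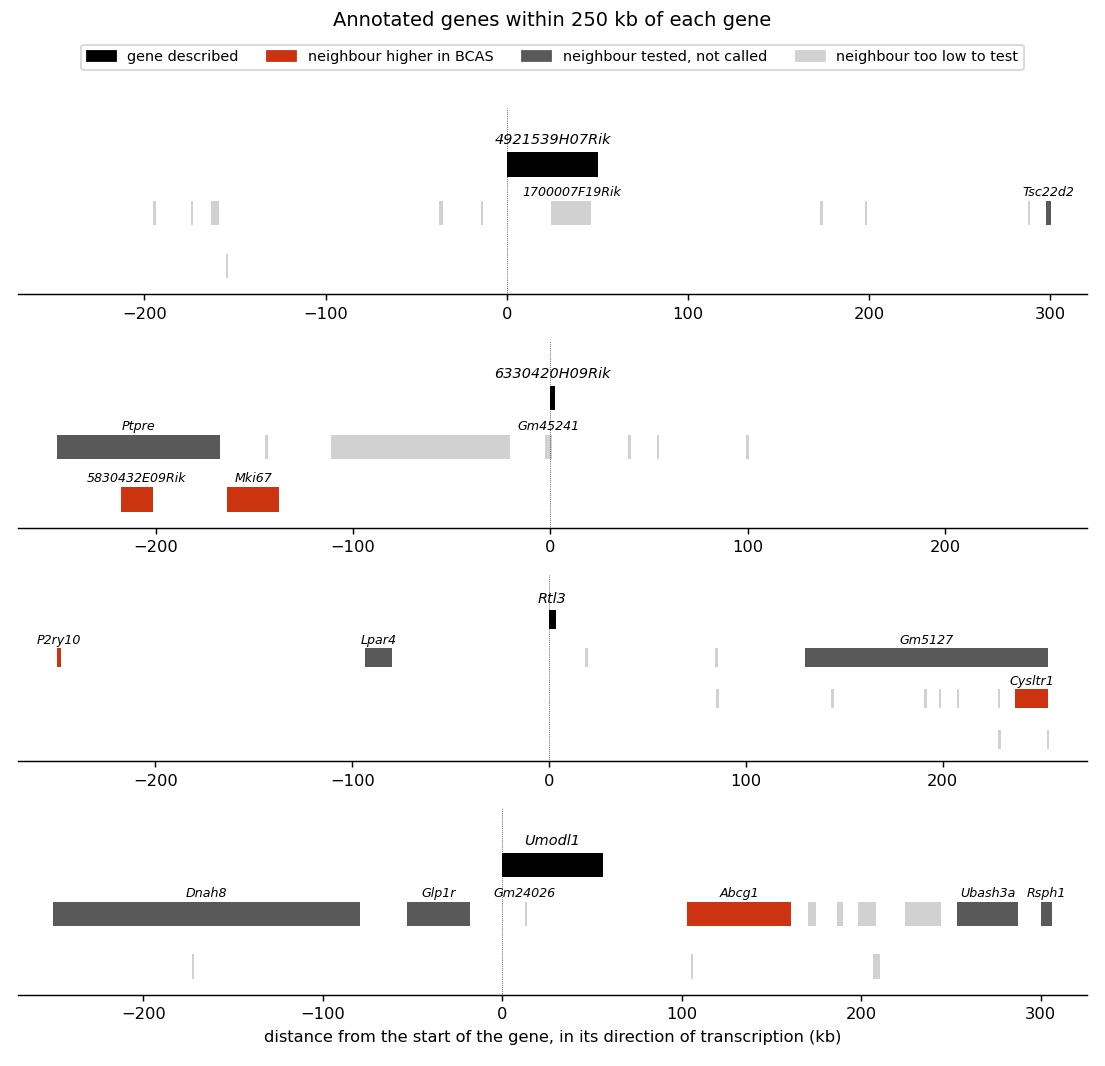
Annotated genes within 250 kb of each of the 4 genes, drawn to scale by distance in kb from the start of the gene in its direction of transcription and stacked only to avoid overlap. Red bars are the 5 neighbours higher in BCAS mice, dark grey bars the 8 tested and not called, and light grey bars genes too low to test; names are given for tested and overlapping genes, and bars are cut at the edge of the window.

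Other members of the families of Rtl3 and Umodl1 differed less, but Rtl3 and Umodl1 had been chosen for large falls. Of the 11 other genes of the Rtl family, all tested, 5 were lower and none was higher (edgeR, adjusted p under 0.05), beside 13.2% lower and 18% higher over all tested genes. Their median log2 fold change was -0.34, beside 0.018 over all tested genes. Ldoc1, a leucine zipper gene of this family on the X chromosome, had 96, 94 and 112 counts after sham surgery and 67, 36 and 48 after BCAS, at -0.89 (SE 0.26, edgeR adjusted p = 0.0301). Rtl6 was at -0.32 (edgeR adjusted p = 0.0311, and 0.0574 with library totals), and Rtl8a, Rtl8b and Rtl8c were at -0.34 to -0.37, with edgeR adjusted p from 0.0224 to 0.0253. The Rtl8 genes are near-identical copies, and reads that align to several places were not counted, so their values are uncertain. Rtl4 had -0.58 (edgeR adjusted p = 0.0782), Peg10 -0.38 (0.288), Rtl5 -0.11 (0.517), Rtl10 -0.01 (0.993), Rtl9 0.05 (0.952) and Rtl1 0.13 (0.663), and none of these was called. The count of 5 was not stable, falling to between 0 and 2 when any library except BCAS mouse 2 was left out.

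The Pnma family is a separate group of Gag like genes, in which Arc, an immediate early gene of synaptic plasticity whose protein forms capsids, was listed as well. Of 6 tested, 3 were lower and none higher (median -0.43), beside 13.2% lower and 18% higher over all tested genes. These were Arc at -1.19 (SE 0.22, edgeR adjusted p = 0.00406), Pnma2 at -0.61 (edgeR adjusted p = 0.0136) and Zcchc18 at -0.48 (edgeR adjusted p = 0.0148). Arc had 3361, 5555 and 4893 counts after sham surgery and 1386, 1979 and 2195 after BCAS, so the groups did not overlap. Without sham mouse 3 the calls of Pnma2 and Zcchc18 were lost (edgeR adjusted p = 0.0625 and 0.0657). Rtl3, at -2.19, lay below every tested gene of both families, a place that its choice among the largest falls made likely.

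Most genes with a ZP domain were hardly detected in this tissue, and of 13 other than Umodl1 only 5 could be tested. Umod itself had a single count, in BCAS mouse 2. Eng, a co-receptor of TGF-beta in endothelium, was higher, with 960, 1067 and 961 counts after sham surgery and 1479, 1285 and 1696 after BCAS, at 0.69 (SE 0.11, edgeR adjusted p = 0.00204). Tecta at 0.76, Tgfbr3 at 0.44, Zpld1 at -0.04 and Tectb at -0.55 were not called, with edgeR adjusted p from 0.129 to 0.972. Among the tested genes of this list Umodl1 was the lowest in log2 fold change, and the only one under -1. Its choice among the largest falls made this place likely, and only 5 other genes could be compared.

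**Figure D4:**
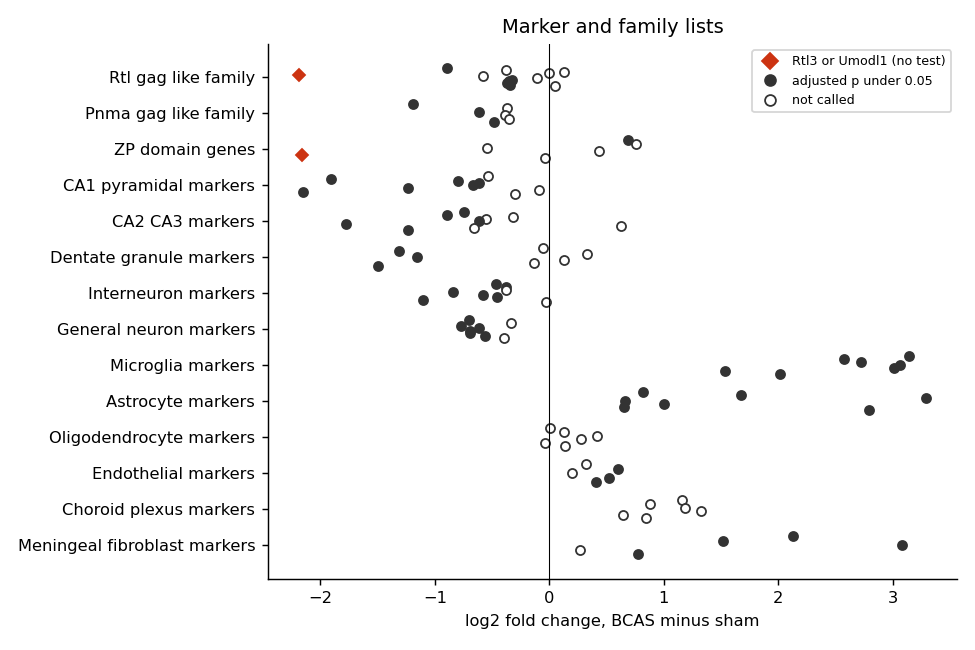
Log2 fold change (BCAS minus sham) of each tested gene in 14 lists of gene families and cell type markers; filled points passed an adjusted p under 0.05, open points did not, and red diamonds are Rtl3 and Umodl1, which carry no test. Rtl3 and Umodl1, chosen for large falls, lie below the rest of their families, with Spink8 at -2.15 the nearest of the marker genes, and vertical offsets within a row have no meaning.

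The cell type markers were examined in the same libraries, where 13.2% of all tested genes were lower and 18% higher. Of 9 CA1 pyramidal markers 6 were lower (median -0.67), among them Spink8 (-2.15, edgeR adjusted p = 0.00121), Fibcd1, a receptor for acetylated glycans (-1.91, 0.002), and the transcription factor Pou3f1 (-1.24, 1e-04). Of 9 CA2 and CA3 markers 5 were lower (median -0.65), with Iyd at -1.77 (edgeR adjusted p = 0.0023) and Rgs14, a regulator of G-protein signalling in CA2, at -1.24 (0.0015). Of 7 dentate granule markers 3 were lower, of 8 interneuron markers 6 and of 8 general neuronal markers 6, and no gene of these 5 neuronal lists was higher by edgeR, at an unadjusted p either, or by DESeq2. Without sham mouse 1 or sham mouse 2 the counts were 1 of the dentate and 3 of the general neuronal markers. All 7 microglial and all 7 astrocyte markers were higher, with medians of 2.73 and 1.01, as were 3 of 5 endothelial and 4 of 5 meningeal fibroblast markers, while none of 6 oligodendrocyte and none of 6 choroid plexus markers was called by edgeR. At an unadjusted p under 0.05 edgeR had 1 oligodendrocyte and 0 choroid plexus markers higher, the same numbers as DESeq2 called at an adjusted p under 0.05. No marker in these lists was at 0, and the markers of each hippocampal subfield were detected.

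The 4 genes were lower than the summed neuronal markers in every BCAS mouse. The summed CA1 markers were at 53.3%, 73.4% and 51.5% of the sham mean in BCAS mice 1, 2 and 3, the CA2 and CA3 markers at 70.2%, 50.6% and 43.9%, the general neuronal markers at 68.5%, 74.4% and 51%, and the interneuron markers at 66.4%, 73.5% and 62.4%. The summed dentate granule markers did not share this pattern, with BCAS mouse 1 above the sham mean at 119% and mice 2 and 3 at 52.1% and 83.8%. In the same mice 4921539H07Rik was at 11.4%, 5.18% and 1.88%, 6330420H09Rik at 19.5%, 5.65% and 0%, Rtl3 at 11.3%, 33.2% and 21.4%, and Umodl1 at 27.1%, 27.7% and 11.9%. The summed microglial markers were 275 to 285 CPM after sham surgery and 1390 to 2240 CPM after BCAS. Single CA1 markers came close to Rtl3 and Umodl1, with mean BCAS levels of 22.5% of sham for Spink8 and 26.6% for Fibcd1, beside 22% for Rtl3 and 22.2% for Umodl1, and the 4 genes had been chosen for large falls. Spink8 had 5.87, 2.68 and 2.31 CPM in BCAS mice 1, 2 and 3, against a sham mean of 16.1 CPM. Fibcd1 had 56.27, 56.21 and 23.25 CPM, against 170.2 CPM. As a share of the sham mean, Spink8 was below Rtl3 and Umodl1 in BCAS mouse 2. In BCAS mouse 3 both markers were below Rtl3 but not Umodl1, and in BCAS mouse 1 they were above both genes. The part of these shifts in cell type markers in the lower level of the 4 genes was not tested.

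**Figure D5:**
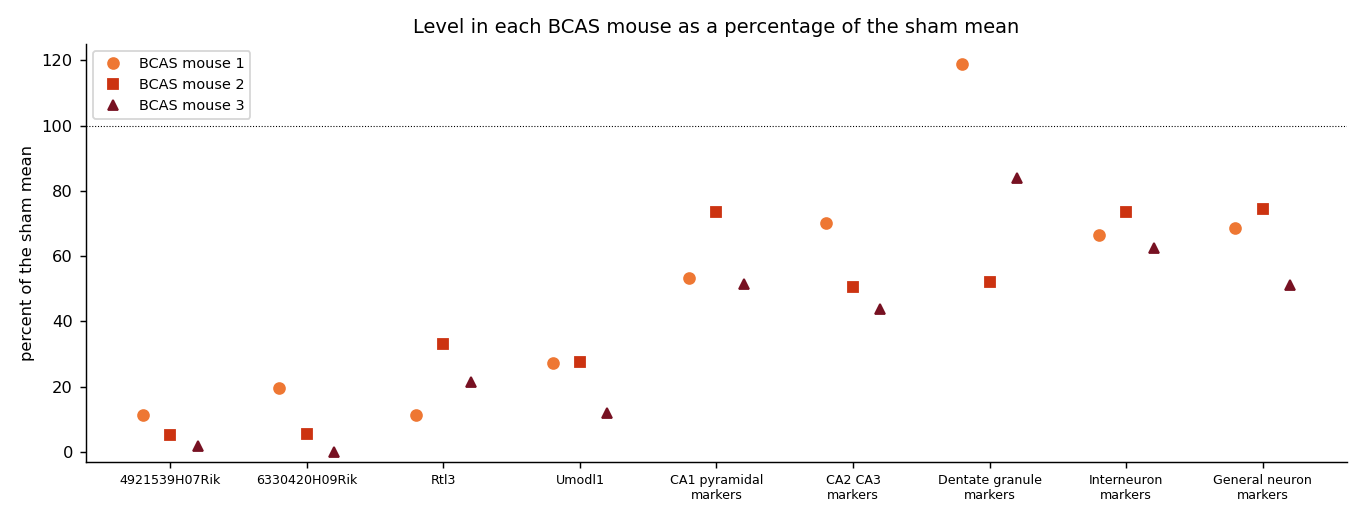
Level in each BCAS mouse as a percentage of the sham mean, for the 4 genes and for 5 lists of neuronal markers summed in CPM; symbols mark the 3 BCAS mice and the dotted line is the sham mean. The 4 genes are between 0% and 33.2%, and the marker sums are between 43.9% and 74.4%, except the dentate granule markers, which run from 52.1% to 119%.

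Choroid plexus markers, genes of the epithelium of a tissue inside the ventricles beside the hippocampus, varied within both groups. Their sum was 993.3, 4112 and 70.74 CPM in sham mice 1, 2 and 3 and 5976, 48.16 and 3239 CPM in BCAS mice 1, 2 and 3. In the pair of libraries with low sums, sham mouse 3 and BCAS mouse 2, the counts were 152 against 8 for 4921539H07Rik, 162 against 7 for 6330420H09Rik, 96 against 30 for Rtl3 and 66 against 18 for Umodl1. The direction in this pair was fixed by the choice of the genes, and the part of choroid plexus RNA in their levels was not tested.

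The genes most like each of the 4 were then listed by the Pearson correlation of log2 CPM over the 6 libraries, as a description with no test. For 4921539H07Rik these were Atp2b1, a calcium pump of the plasma membrane (r = 0.9995), Ppp4r4, a regulatory subunit of protein phosphatase 4 (0.9988), and Dock4, an activator of Rac (0.9981). Atp2b1 had 822.8 to 920.2 CPM after sham surgery and 355 to 501.9 CPM after BCAS, and its log2 fold change was -1.01, far smaller than that of 4921539H07Rik. For 6330420H09Rik they were Cabp7 (0.9989), Hpca, the neuronal calcium sensor hippocalcin (0.998), and Kcnip2, which binds Kv4 channels (0.998). Hpca had 42294, 40758 and 44079 counts after sham surgery and 20188, 12988 and 7011 after BCAS, the same order of the BCAS mice as in 6330420H09Rik, at a log2 fold change of -1.56.

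Rtl3 was most like Epb41l3, of the membrane skeleton (0.9945), Pde6d, which binds prenylated proteins (0.9936), and Gm49194 (0.9934), a transcript with 14 counts in each sham and 11 counts in each BCAS library. Umodl1 was most like Fbxo11, of a ubiquitin ligase (0.9992), the microtubule protein Map1b (0.9992) and Kpna1, an importin (0.9987), with log2 fold changes of -0.36, -0.51 and -0.40. Such values were common, since r exceeded 0.95 for 844 genes with 4921539H07Rik, 805 with 6330420H09Rik, 223 with Rtl3 and 1128 with Umodl1. The 6 libraries fall into 2 groups that do not overlap for any of the 4 genes, and r over all 6 includes that difference.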

How the data were processed

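Counts per gene were compared between 3 sham and 3 BCAS libraries. Per the file headers and notes, the authors trimmed reads with Trim Galore, aligned them to mm10 with HISAT2 and deposited raw counts from featureCounts (2.0.3 in the headers, 1.6.3 in the notes; GENCODE M20). Strand was ignored, mates were counted separately, and reads with several alignments or several genes were left out. Totals were 29652456 to 35607098 counts, and each was multiplied by its TMM factor before scaling to CPM. On that scale 3 counts, taken as the limit of detection, equal 0.0874 to 0.0994 CPM. Group and replicate came from the titles. Inside the tables the columns of BCAS mice 1, 2 and 3 carry the numbers 2, 3 and 4.

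Genes kept by filterByExpr were fitted with edgeR 4.0.16 in R 4.3.3 (TMM factors, quasi-likelihood test, Benjamini-Hochberg adjustment over all tested genes, threshold 0.05, prior count 2 for log2 CPM), after a check on simulated data. The SE of a log2 fold change is its size over the square root of the F statistic. Alternatives used DESeq2 1.42.0, limma 3.58.1, other scalings and filters, and each library left out. Positions are from the deposited M20 exons, and symbols, found for 54723 of 54752 genes, transcripts and promoters from M21 and RefSeq.

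The 4 genes and the lists were chosen with earlier results of these data known. Named genes are the 4 genes, those at the edges of the rule, overlapping genes, the nearest tested gene on each side, list members, and the 3 genes most correlated with each. Other tested neighbours that were called, the annotation class members below -2, and Rasd1 are named after their values were seen.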

Additional observations from a re-analysis of the deposited data

How the results depend on the processing

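The log2 fold changes of the 4 genes kept their direction under every alternative run, and ranged from -4.80 to -3.57 for 4921539H07Rik, from -5.12 to -2.98 for 6330420H09Rik, from -2.61 to -1.87 for Rtl3 and from -2.35 to -1.87 for Umodl1. Their order among falls did not. Under limma-voom they were in places 2, 1, 5 and 8, and without BCAS mouse 1 Rtl3 was in place 20. Mice with the same replicate number had residual correlations of 0.036, -0.314 and -0.158. With 3 mice per group these values cannot decide whether the mice were paired. By the numbers of the BCAS columns inside the tables, 2 to 4, only 2 pairs share a number, sham mouse 2 with BCAS mouse 1 (0.223) and sham mouse 3 with BCAS mouse 2 (0.347), and the titles were followed. With the number as a block the 4 genes were in places 1, 2, 4 and 7, the lower count of the Rtl family fell from 5 to 1, and the genes called were 1750 lower and 2782 higher, against 2463 and 3356. Among counts over neighbours and lists, DESeq2 and the absence of a filter each gave 5 lower Pnma genes and 1 higher oligodendrocyte marker, no filter gave 2 higher ZP genes, and library totals gave 5 higher endothelial markers. Leaving out 1 library at a time gave 3 to 5 higher neighbours, 0 to 5 lower Rtl genes, 1 to 4 lower Pnma genes, 1 to 2 higher ZP genes, 1 to 3 lower and 0 to 1 higher dentate markers, 3 to 8 lower general neuronal markers and 0 to 1 higher oligodendrocyte markers. The cause was not tested. For single neighbours and list genes, 1459 values stayed on their side of the threshold, 70 lost and 38 gained a call, and none reversed. With 0 to 30 counts per BCAS library, depth limits how well the low levels of the 4 genes can be ranked.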
